A study of Homo sapiens with 10 samples.

Results

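The MYC locus was taken as chromosome 8 from 127.5 to 131 Mb on hg19, a window of 3.5 Mb that holds the gene MYC, its neighbour PVT1 and the distal enhancers on the far side of PVT1. Its members were all regions of 6 CUT&RUN peak lists that touched the window, chosen by position alone, and they numbered 114 of 121294 regions in all. The cells were RPMI-8402, an untreated established line of human T-cell acute lymphoblastic leukaemia, so every list comes from 1 cell line with the same genotype and treatment. In CUT&RUN an antibody guides a nuclease to its target in permeabilised cells, and the DNA it releases is sequenced. By the labels, MYCN was of set A, H3K4me3 of set B, MYC, H3K27ac and H3K4me1 of set C, and a further MYC library of set D. The 10 libraries of the series also include 4 control IgG libraries, whose values are not analysed here.

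MYC is a transcription factor that pairs with MAX and drives growth and proliferation genes, and MYCN is its close relative. PVT1 is a long noncoding RNA gene beside MYC, known for enhancers inside it and for a promoter that competes with that of MYC for distal enhancers. In T cells and T-cell leukaemia, MYC is known to depend on enhancers far downstream, among them one bound by NOTCH1, the receptor that is often mutated in this disease. H3K4me3 marks active promoters, H3K27ac marks active promoters and enhancers, and H3K4me1 is found mostly at enhancers and at promoter flanks.

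Within the window 3 stretches were set apart by coordinates. These were MYC (128.745 to 128.756 Mb), PVT1 (128.8 to 129.12 Mb) and a downstream T-cell enhancer span (130 to 130.7 Mb). Distances are given from the centre of the set D MYC peak at MYC, position 128748263, and are positive towards PVT1. Regions were not assigned to genes other than these, and no known enhancer was matched to a region, since an hg19 annotation was not used here. In the RefSeq gene table of the GRCh38 assembly, used for gene order only, the protein-coding genes before MYC are LRATD2 and POU5F1B, and those after it are GSDMC, CYRIB and ASAP1.

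Only positions are listed, and sequencing depth is therefore unknown. Each target had 1 library except MYC, with 2, and since 1 signal track is named in the headers of both, the MYC lists may not be independent. As control for set D MYC that same library is named, so what its peaks were called against is not settled. No test between groups was possible, and no p-value is given. Intervals are exact 95% Clopper-Pearson intervals, which cover counting error over listed regions only. Lists came from different peak callers, so the number of regions is never compared between lists. The labelled cell type was not checked against marker genes.

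The window held 9 MYC regions in set C, 13 MYC peaks in set D, 9 H3K4me3 regions, 46 H3K27ac regions, 37 H3K4me1 regions and no MYCN peak. These counts were near the middle of the range over the genome. Among 818 tiles of the same length on the other parts of the autosomes and chromosome X, the share with at most as many regions as the window was 60.4% for MYC of set C, 43.5% for MYC of set D, 40.8% for H3K4me3, 57.8% for H3K27ac and 54.4% for H3K4me1. For MYCN, 49.5% of tiles also held no peak, so its absence here is a common state of that short list. The median tile held 7 MYC regions of set C, 16 MYC peaks of set D, 1 MYCN peak, 12 H3K4me3, 39 H3K27ac and 33 H3K4me1 regions. What the locus shows is therefore where its regions lie and which marks meet there, not how many there are.

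**Figure D1:**
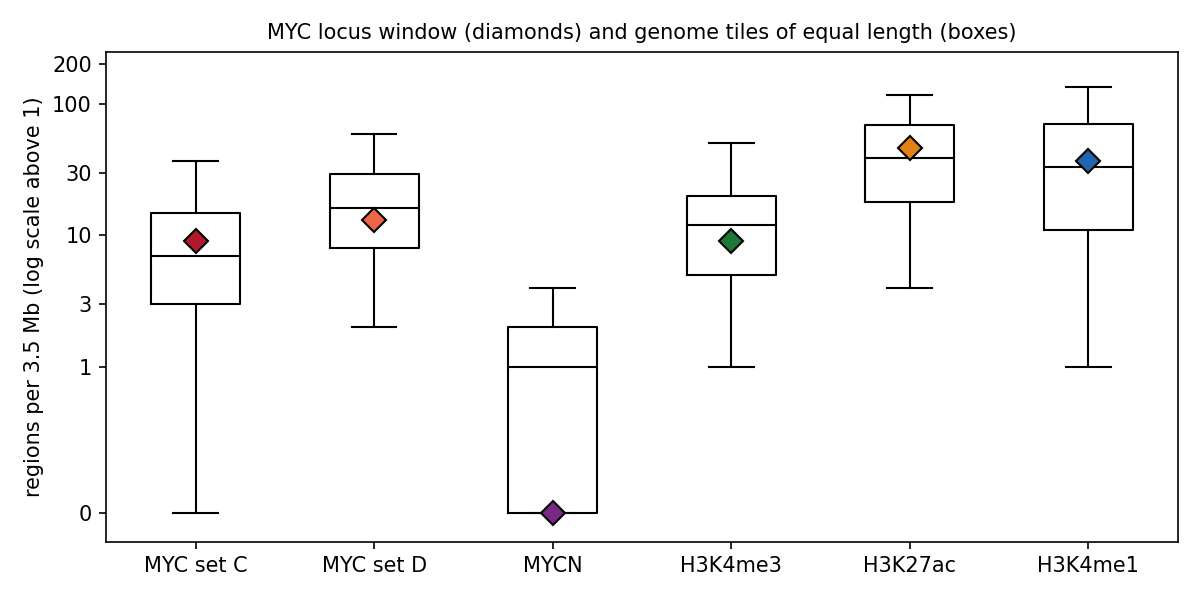
Number of listed regions (y axis, log scale above 1) in the MYC locus window (diamonds) and in 818 other genome tiles of equal length (boxes, quartiles with the median; whiskers, 5th to 95th percentile) for each list (x axis). The window lies within the box for every list, at 46 regions against a median of 39 for H3K27ac and at 0 against a median of 1 for MYCN.

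The nearest MYCN peak on chromosome 8 lay at -3260.65 kb, on the side of MYC away from PVT1, from 125487530 to 125487697, and was 168 bp wide. Chromosome 8 held 31 MYCN peaks in all. No MYCN peak was listed at the MYC promoter, and none of the 9 H3K4me3 regions of the window held MYCN (interval up to 33.6%), beside 5.10% of the whole list.

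The regions were unevenly spread over the window. The longest stretch with no region of any list ran for 433.983 kb, from 657.869 to 1091.85 kb on the PVT1 side, and 346.308 kb directly before MYC were also empty. H3K27ac was missing over 778.219 kb after the last acetylated region of PVT1, and MYC of either set over 1077.38 kb, from PVT1 to the enhancer span. In the stretch without H3K27ac only 1 region was listed, an H3K4me1 region of 168 bp at 657.785 kb, and its width is the smallest in its list. Acetylated chromatin in the window thus came in separate groups, at MYC, in PVT1, in the last part before the enhancer span and in the span itself. It was also listed at both ends of the window, at a few places before MYC and at 1 place between MYC and PVT1.

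**Figure D2:**
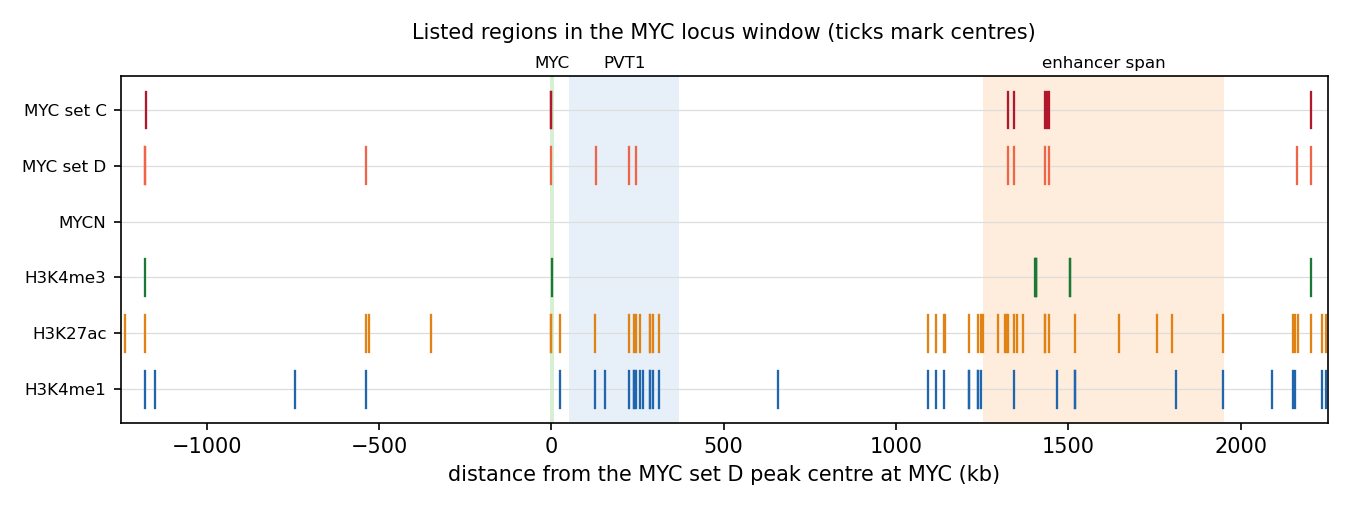
Position of every listed region in the MYC locus window, as distance from MYC in kb (x axis), for the 6 lists (rows). Ticks mark centres and are not to scale, and shading marks MYC, PVT1 and the enhancer span. MYC of set C has 2 regions at MYC, none in PVT1 and 5 in the enhancer span, and the MYCN row is empty.

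At MYC itself the promoter carried a broad H3K4me3 region. It was 5296 bp wide, on chromosome 8 from 128746527 to 128751822, and ranked 42 by width among 13852 H3K4me3 regions, of which 99.7% were narrower. It was the widest of the 9 in the window. The next were 2160 bp at 2203.53 kb and 1334 bp at -1178.17 kb, and the other 6 were between 236 and 1110 bp.

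Acetylation and MYC lay in the first part of that region. H3K27ac had 2 short regions there, of 205 bp (128747306 to 128747510) and 274 bp (128748203 to 128748476). Together they covered 479 bp, or 9.04% of the H3K4me3 region, and the 3346 bp after the second held none. Of the 64 other H3K4me3 regions of at least 5 kb, 20 had a smaller acetylated share, and their median was 16.2% (quartiles 7.18 and 27.1%). The MYC promoter was therefore in the lower part of their range, within the spread of such regions.

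MYC protein was listed on its own promoter in both sets, which may not be independent. Set C had a region of 1543 bp from 128747295 to 128748837, which held both H3K27ac regions, and a smaller one of 669 bp from 128746125 to 128746793, which reached 402 bp beyond the edge of H3K4me3. The set D peak was 420 bp wide, from 128748053 to 128748472, and lay inside the larger set C region and over the second H3K27ac region. The larger set C region and the set D peak were not exceptional in width for their lists. Of set C regions 79.0% were narrower than the larger one, and 49.6% of set D peaks were narrower than that at MYC. The smaller set C region was among the narrowest of its list, of which 4.38% were narrower. MYC of set C covered 34.2% of the H3K4me3 region, against a median of 38.7% over the 64 other broad regions, and set D covered 7.93%, against 12.5%.

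No H3K4me1 region was listed on the promoter, as on 58 of the 64 other broad H3K4me3 regions. The nearest H3K4me1 region was 19895 bp from the H3K4me3 region, at 23.679 kb on the PVT1 side. It was 448 bp wide and lay 685 bp from an H3K27ac region of 337 bp, so that the marks were neighbours without overlap. This pair was all that was listed between MYC and PVT1. The stretch without H3K4me1 around the promoter was 561.666 kb long, and most of it lay on the side away from PVT1.

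**Figure D3:**
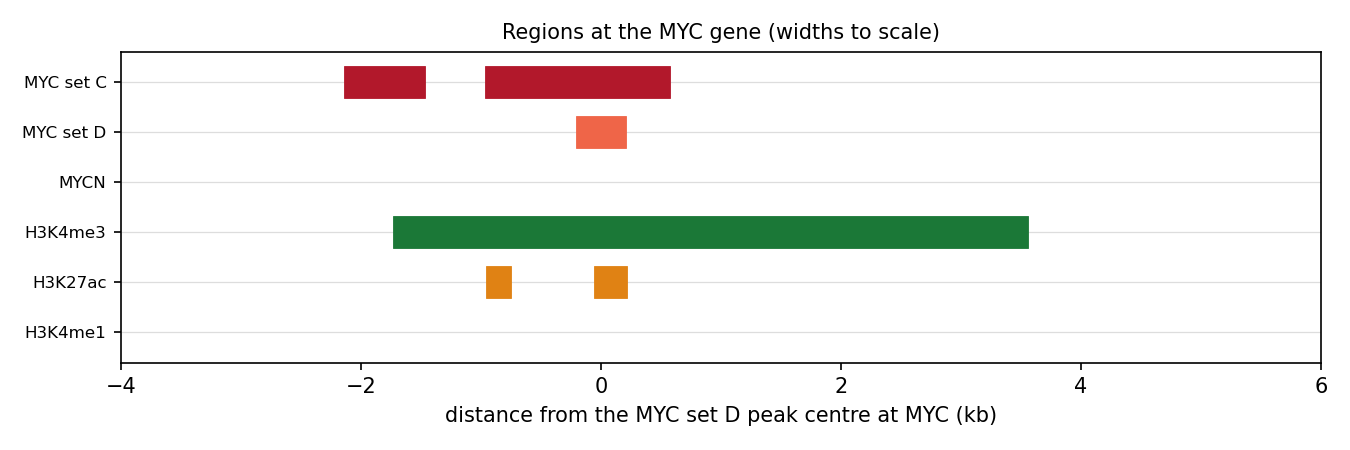
Regions of the 6 lists (rows) at MYC, drawn to scale against distance from the set D MYC peak in kb (x axis). The H3K4me3 bar of 5296 bp spans both H3K27ac regions, which lie in its left part beside the MYC bars, while the MYCN and H3K4me1 rows are empty.

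PVT1 carried enhancer marks without promoter marks. Its 0.32 Mb held 9 H3K27ac and 12 H3K4me1 regions, no H3K4me3 region and no MYC region of set C, and MYC of set D had 3 peaks. Most lay in the part of PVT1 far from MYC, with 8 of the 9 H3K27ac regions between 224.06 and 313.164 kb. The widest were 937 bp from 129060959 to 129061895, 911 bp from 128987927 to 128988837 and 789 bp from 128993446 to 128994234.

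In PVT1 acetylation lay on or near H3K4me1. Of the 9 H3K27ac regions 6 overlapped H3K4me1 (66.7%, interval 29.9 to 92.5%), beside 45.3% of the whole H3K27ac list, which lies inside the interval. The other 3 missed it by 38, 39 and 888 bp, so that all 9 lay within 1 kb of H3K4me1 (interval 66.4 to 100%), beside 51.8% of the whole list. The distance of 1 kb was chosen after the values were seen, and some of the 9 are close neighbours, which the interval treats as independent. Enhancer-like regions, that is H3K4me1 regions on H3K27ac but off H3K4me3, numbered 7 of the 12 H3K4me1 regions (58.3%, interval 27.7 to 84.8%), beside 47.0% of the whole H3K4me1 list. The widest were 565 bp from 128993922 to 128994486, 528 bp from 128988722 to 128989249 and 487 bp from 128988060 to 128988546, and the last 2 lay on 1 H3K27ac region.

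The 3 set D peaks in PVT1 lay at the edges of these marks and not on H3K4me1. The peak of 369 bp from 128876422 to 128876790 was 89 bp from H3K4me1 and 228 bp from H3K27ac. The peak of 269 bp from 128972762 to 128973030 lay 92 bp from H3K27ac on one side and 527 bp from H3K4me1 on the other. The third, 347 bp from 128993485 to 128993831, lay on H3K27ac and ended 90 bp before H3K4me1. All 3 were narrower than the median set D peak of 422 bp, and the set C region nearest to any of them was 127584 bp away.

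**Figure D4:**
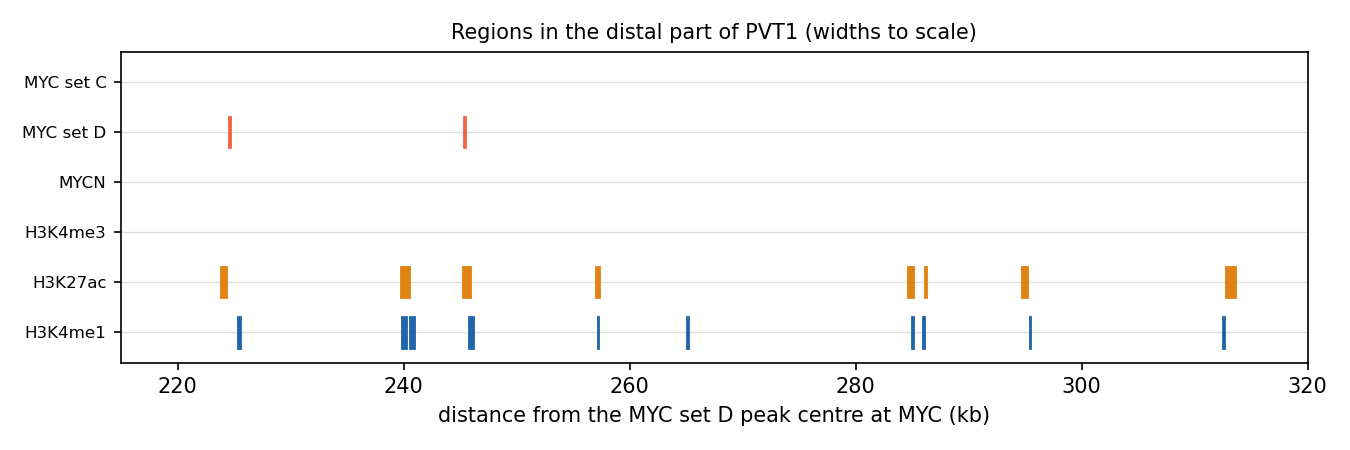
Regions of the 6 lists (rows) in the part of PVT1 far from MYC, to scale against distance in kb (x axis). Each H3K27ac bar lies on or near an H3K4me1 bar, while an H3K4me1 bar at 265.15 kb stands apart. The 2 set D MYC peaks stand beside or on H3K27ac bars, and the set C MYC, MYCN and H3K4me3 rows are empty.

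Between PVT1 and the enhancer span, 7 H3K27ac and 9 H3K4me1 regions were listed, with no MYC, MYCN or H3K4me3. The acetylated ones lay in the last part of it, between 1092.31 and 1246.93 kb from MYC. Of the 7 H3K27ac regions 6 overlapped H3K4me1 (85.7%, interval 42.1 to 99.6%), and of the 9 H3K4me1 regions 7 were enhancer-like (77.8%, interval 40.0 to 97.2%). The whole-list shares, 45.3% and 47.0%, lay inside these intervals. The widest H3K4me1 region was 731 bp, from 129994788 to 129995518, over an H3K27ac region of 899 bp, and was enhancer-like. Next in width were 456 bp from 129984677 to 129985132 and 272 bp from 129863593 to 129863864, both also on H3K27ac. The widest H3K27ac regions beside that of 899 bp were 922 bp from 129840115 to 129841036 and 860 bp from 129889579 to 129890438, of which the first overlapped H3K4me1 and the second did not. Joining H3K27ac regions across gaps of up to 10 kb gave the longest cluster of the window here. It ran for 17389 bp from 129984591 to 130001979, just into the enhancer span, with 3 H3K27ac regions, 3 H3K4me1 regions and no MYC.

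The downstream enhancer span held MYC at several sites. Of the 9 set C regions in the window 5 were there, covering 8110 bp, and of the 13 set D peaks 4 were there. Per length this was 7.14 set C regions and 5.71 set D peaks per Mb, against none and 9.38 in PVT1. The short MYC stretch itself held 2 set C regions and 1 set D peak. Genome tiles, each as long as the whole window, held a median of 7 set C regions (quartiles 3 and 14.75). For set D peaks their median was 16 (quartiles 8 and 29). Tiles of the span's own length were not counted, so whether the span is dense in MYC beside the genome was not tested. All 4 set D peaks of the span overlapped set C regions. The sites formed 2 groups, at 1323.62 to 1342.13 kb and at 1431.70 to 1443.91 kb from MYC.

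The widest MYC region of the locus was in the group farther from MYC. It was 2995 bp wide, from 130178470 to 130181464, and ranked 179 by width among the 9498 regions of set C, of which 98.1% were narrower. It enclosed a set D peak of 441 bp from 130180218 to 130180658. The name field of each set C region gives a short interval, which in the usual output of this caller is the stretch of highest signal. For this region that interval was centred 9 bp from the centre of the set D peak. Over the 7 set C regions of the window with a set D peak the distance was between 9 and 446 bp, and 5 of the 7 intervals overlapped the set D peak. The exceptions were the larger region at MYC (446 bp) and the region from 130071212 (313 bp). As the MYC lists may not be independent, these distances do not measure agreement between libraries.

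Acetylation stood on both sides of this set D peak and not on it. An H3K27ac region of 1081 bp (130178755 to 130179835) ended 382 bp before the set D peak, and another of 201 bp (130181083 to 130181283) began 424 bp after it. The nearest H3K4me1 region lay 32518 bp from the set C region, and the nearest H3K4me3 region 23437 bp. Next to it came a set C region of 900 bp (130184346 to 130185245) with no mark and no set D peak, the only set C region of the window that met no mark (1 of 9), beside 8.10% of the whole list.

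A further MYC site in this group lay on acetylated chromatin. The set C region of 1569 bp from 130191359 to 130192927 held an H3K27ac region of 1262 bp, from 130191439 to 130192700, and a set D peak of 465 bp, from 130191939 to 130192403. The nearest H3K4me1 region was 21055 bp away. This H3K27ac region was the widest of the span, and 89.7% of its list was narrower.

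The group nearer to MYC had 2 sites. At the first, a set C region of 1591 bp (130071212 to 130072802) overlapped the edge of an H3K27ac region of 430 bp, and its set D peak of 199 bp lay 259 bp from that region. At the second, a set C region of 1055 bp (130089868 to 130090922) and a set D peak of 518 bp (130089778 to 130090295) lay on an H3K27ac region of 1190 bp. That was the only MYC site of the span near H3K4me1, a region of 193 bp which ended 82 bp before the set D peak.

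**Figure D5:**
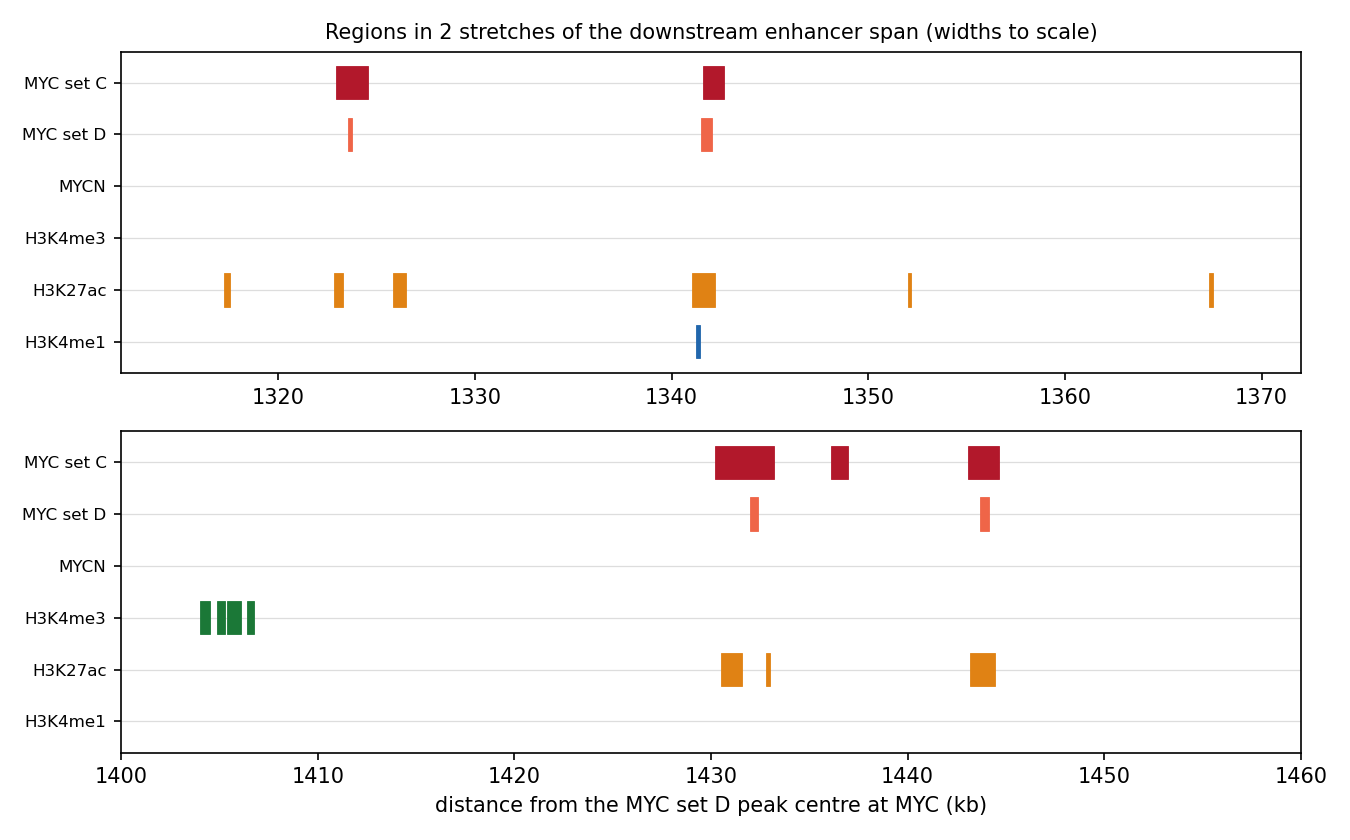
Regions of the 6 lists (rows) in 2 stretches of the enhancer span, to scale against distance from MYC in kb (x axis). MYC bars of both sets stand on or between H3K27ac bars, a single H3K4me1 bar lies beside the site near 1341.62 kb, and 4 H3K4me3 bars stand apart from all other lists.

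Few H3K27ac regions of the span overlapped H3K4me1. Of 16 the count was 3 (18.8%, interval 4.05 to 45.6%), beside 45.3% of the whole list, which lies just inside the interval, and the same 3 were the only ones within 1 kb of it. In PVT1 the counts were 6 of 9 for overlap, with an interval that overlaps that of the span, and 9 of 9 within 1 kb, with an interval that does not. This contrast was picked after the values were seen and was not tested. Both stretches include close neighbours, which the intervals treat as independent. The window as a whole had 20 of 46 H3K27ac regions on H3K4me1 (43.5%, interval 28.9 to 58.9%), near the 45.3% of the whole list. Within 1 kb of H3K4me1 were 25 of 46 (54.3%, interval 39.0 to 69.1%), near the 51.8% of the whole list. Of the 16 regions in the span 5 held MYC of either set (31.3%, interval 11.0 to 58.7%), beside 34.6% of the whole list. The far part of the span was sparse. From 1518.3 kb on it held 5 H3K27ac regions between 164 and 597 bp wide, and no MYC. The widest H3K4me1 regions of the span were here, with 564 bp from 130697097 to 130697660, which was enhancer-like, 377 bp from 130558841 to 130559217, and 266 bp from 130266074 to 130266339.

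H3K4me3 in the span was apart from every other list. It formed 2 groups, with 4 regions from 130152254 to 130155032 and 2 regions from 130251534 to 130253428, between 236 and 1110 bp wide. The widest were 1110 bp from 130252319 to 130253428, 728 bp from 130153646 to 130154373 and 542 bp from 130152254 to 130152795. None of the 6 overlapped H3K27ac, H3K4me1 or MYC, and the smallest distance to H3K27ac was 12955 bp. They make 6 of the 9 in the window (66.7%, interval 29.9 to 92.5%), beside 14.5% of all H3K4me3 regions that overlapped no other list. Among regions narrower than the list median of 1341 bp the count was 6 of 7 (85.7%, interval 42.1 to 99.6%), beside 26.2%. The regions of each group are close neighbours and are not independent. The other 3 H3K4me3 regions of the window, at MYC and near both ends, all overlapped H3K27ac and MYC of both sets.

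Towards the ends of the window MYC returned at 2 H3K4me3 regions. The region from 127569422 to 127570755, at -1178.17 kb, overlapped H3K27ac of 1557 bp, a set C region of 1291 bp and 2 set D peaks of 737 and 496 bp. Each of these reached beyond an edge of that H3K4me3 region. The region from 130950712 to 130952871, at 2203.53 kb, held H3K27ac of 1264 bp, a set C region of 1208 bp and a set D peak of 816 bp, the widest of set D in the window. Between the first of these and MYC, at -539.091 kb, a set D peak of 309 bp, from 128209017 to 128209325, lay inside H3K27ac of 1298 bp. It overlapped only the edge of H3K4me1 of 792 bp. It was the only MYC peak of the window that met an enhancer-like region, that from 128209260 to 128210051, and its centre lay outside that region. Other wide regions before MYC were an H3K27ac region of 1013 bp from 127512027 to 127513039 and an H3K4me1 region of 738 bp from 128003471 to 128004208, neither of which met another list, and an H3K4me1 region of 190 bp lay 860 bp from the H3K27ac region of 1557 bp. After the span, the widest H3K27ac region was 1449 bp from 130983793 to 130985241, and it held the enhancer-like region of 626 bp from 130984526 to 130985151, the widest there. Other H3K4me1 regions there were 602 bp from 130996322 to 130996923, on H3K27ac, and 223 bp from 130838421 to 130838643, on no other list. An H3K27ac region of 784 bp opened at 130898229, and a set D peak of 210 bp lay from 130912302 to 130912511.

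Over the window, MYC met the marks as follows. H3K27ac was met by 7 of 9 set C regions (77.8%, interval 40.0 to 97.2%), beside 78.2% of the whole list, but by 3 of 9 (33.3%) when counted by the centre or by 50% of the region. It was met by 8 of 13 set D peaks (61.5%, interval 31.6 to 86.1%), beside 70.7%. H3K4me3 was met by 4 of 9 set C regions (44.4%, interval 13.7 to 78.8%), beside 65.9%, and by 4 of 13 set D peaks (30.8%, interval 9.09 to 61.4%), beside 56.0%. The whole-list shares lay inside these intervals. H3K4me1 was met by none of 9 set C regions (interval up to 33.6%), beside 26.6%, and by 1 of 13 set D peaks (7.69%, interval 0.195 to 36.0%), beside 28.2%, so that no difference from the whole lists was detectable with so few peaks.

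Peaks of set D off the marks stayed close to acetylation. In the window 5 of 13 set D peaks overlapped no mark (38.5%, interval 13.9 to 68.4%), beside 10.5% of the whole list, which lies below the interval. All 5 lay within 1 kb of H3K27ac, at 92 to 382 bp (interval 47.8 to 100%), beside 15.4% of the 1899 set D peaks without a mark in the whole list. With or without a mark, 13 of 13 set D peaks of the window were within that distance (interval 75.3 to 100%), beside 76.6%. Of the 5, 2 were in PVT1, 2 in the enhancer span and 1 at 2164.14 kb. These comparisons were chosen after the values were seen.

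Seen from the marks, MYC of either set was held by 3 of 9 H3K4me3 regions (33.3%, interval 7.49 to 70.1%), beside 76.7% of the whole list, which lies above the interval. The 6 without MYC are the 2 groups of close neighbours in the enhancer span. The interval treats them as independent, so the difference from 76.7% is not settled. MYC was held by 11 of 46 H3K27ac regions (23.9%, interval 12.6 to 38.8%), beside 34.6%, and by 1 of 37 H3K4me1 regions (2.70%, interval 0.0684 to 14.2%), beside 15.9%, which is just above the interval. In both sets together MYC was held by the same 3 H3K4me3 regions, beside 43.4%, by 5 H3K27ac regions, beside 16.0%, and by no H3K4me1 region, beside 4.40%. Among the 22 enhancer-like regions of the window 1 held MYC (4.55%, interval 0.115 to 22.8%), beside 20.4% of 18564, which lies inside the interval. Of these 22 regions 7 were in PVT1, 7 between PVT1 and the span and 3 in the span, and none of these 17 held MYC. In the enhancer span, 4 of the 5 set C regions overlapped H3K27ac and none overlapped H3K4me1, while the region of 900 bp lay 3062 bp from H3K27ac. Over both lists, 0 of 4 set C regions with H3K27ac and no H3K4me3 overlapped H3K4me1 (interval up to 60.2%), beside 53.7%, and 1 of 4 such set D peaks (interval 0.631 to 80.6%), beside 56.8%. The whole-list shares lay inside the intervals of the window, except for H3K4me3 and H3K4me1 regions holding MYC of either set.

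H3K4me3 met the other marks at few regions of the window, and 6 of its 9 regions were the groups of close neighbours in the enhancer span. H3K4me3 met H3K27ac at 3 of 9 regions (33.3%, interval 7.49 to 70.1%), beside 66.2%, and H3K4me1 at none of 9 (interval up to 33.6%), beside 14.4%. From the other side, 4 of 46 H3K27ac regions met H3K4me3 (8.70%, interval 2.42 to 20.8%), beside 23.2%, which lies just above the interval, and none of 37 H3K4me1 regions did (interval up to 9.49%), beside 5.18%. H3K4me1 met H3K27ac at 22 of 37 regions (59.5%, interval 42.1 to 75.2%), beside 50.4%, and 29 of 37 lay within 1 kb of it (78.4%, interval 61.8 to 90.2%), beside 61.9%. Of the 46 H3K27ac regions 18 met no other list (39.1%, interval 25.1 to 54.6%), beside 30.3%, and of the 37 H3K4me1 regions 15 (40.5%, interval 24.8 to 57.9%), beside 45.0%. Apart from that of H3K27ac regions meeting H3K4me3, the whole-list shares of these overlaps lay inside the intervals of the window.

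The 2 MYC lists named many of the same places here. Of the 9 set C regions 7 overlapped set D (77.8%, interval 40.0 to 97.2%), beside 82.5% of the whole list, and of the 13 set D peaks 7 overlapped set C (53.8%, interval 25.1 to 80.8%), beside 45.1%. The shared places were MYC, 4 sites in the enhancer span and the H3K4me3 regions near both ends. The 6 set D peaks without set C were the 3 in PVT1, that at -539.091 kb, that at 2164.14 kb and that at -1179.12 kb.

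At the main joining gap, H3K27ac clusters of at least 2 regions had a median length near that of the whole list. Across gaps of up to 10 kb the 46 regions gave 32 clusters, of which 10 (31.3%) had at least 2 regions, beside 7010 of 28279 (24.8%) in the whole list. The median length of these was 9826.5 bp in the window, beside 8678.5 bp in the whole list. After the cluster of 17389 bp came those of 15054 bp (130898229 to 130913282), 11150 bp (130089288 to 130100437), 10725 bp (129032843 to 129043567) and 10393 bp (128208570 to 128218962). The longest ranked 924 by length among all 28279 clusters of the list, single regions included, the longest of which was 122562 bp. Across gaps of up to 20 kb the longest of the window was 50268 bp, and its rank was not computed. The cluster at MYC, with 2 regions, was 1171 bp long, and that on both sides of the widest MYC site was 2529 bp long.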

How the data were processed

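The deposited values are peak starts and ends, in bases. Build hg19 and the tools MACS2 and SEACR come from the submitters' processing notes. Per the file headers, MYCN peaks are cutruntools output on all fragments, MYC of set C comes from SEACR (stringent, paired), and H3K4me3 and MYC of set D come from MACS2, the set D list without read pairing. No header was found for H3K27ac and H3K4me1. The aligner is not given in the sources used here, and depth is unknown.

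Regions on the autosomes and chromosome X were used. A region belonged to a window, or met another list, by at least 1 bp. Genome tiles without any region (34) were left out, and whole-list shares include the window. The interval in the name field of set C lay inside its region for 9482 of 9498 regions. The overlap code recovered 400 of 400 overlaps planted in simulated data and equalled bedtools 2.31.1 in 30 of 30 list pairs. The software was Python 3.11.15 with scipy 1.17.1 for intervals, numpy 2.4.6, and matplotlib 3.10.9 for plots.

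The members, windows and classes were chosen with earlier results of these data known. Named regions were all set C regions, the 3 widest of other lists in each stretch, the 5 longest clusters and the widest enhancer-like regions. Each such region is named by its position or its width. Others named beside a MYC site, in the distance to a mark or at the edge of an empty stretch were chosen after their values were seen, as were the broad H3K4me3 comparison and the setting of 1 kb. Alternatives were other overlap rules, wider regions only, MYC of 1 set, and other gaps for joining.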

Additional observations from a re-analysis of the deposited data

How the results depend on the processing

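Of 66 alternative values for 18 results, 40 stayed within the interval of the main value (shares) or within 1.5 times of it (counts). Keeping only regions at or above the median width, which drops the narrower regions of each list by construction, left 6 MYC peaks of set D, 2 H3K4me3, 22 H3K27ac and 13 H3K4me1 regions in the window, and MYC was then held by 100% of the 2 H3K4me3 regions. In that setting set D met H3K4me1 at 0% of peaks, and 0% of H3K4me1 and of enhancer-like regions held MYC. The share of set C regions on H3K27ac was 33.3% when counted by the centre of the region or by an overlap of at least 50%. Both rules gave 0% for set D on H3K4me1, and counting by the region centre, or by 50% of the shorter of the pair, gave 0% for MYC at H3K4me1 and at enhancer-like regions. Leaving out 1 MYC set gave 0 to 2.70% of H3K4me1 regions and 0 to 4.55% of enhancer-like regions with MYC. The single MYC peak that met an enhancer-like region thus rests on set D. Allowing a distance of 1 kb, a setting chosen after seeing the data, placed 100% of set D peaks at H3K27ac and 46.2% at H3K4me1, and MYC at 16.2% of H3K4me1 regions. Joining H3K27ac across 5 kb gave 6 clusters of at least 2 regions, the longest of 6308 bp, and across 20 kb a longest cluster of 50268 bp, in the enhancer span with 2 MYC sites of each set. With the wider regions only there was 1 such cluster, of 6308 bp. No paired analysis was possible because no result comes from a test. The replicate numbers follow accession order and pair nothing, and the set shared by MYC, H3K27ac and H3K4me1 holds 1 library of each. With 9 to 46 regions a list, the intervals are wide.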
